A study of Mus musculus with 6 samples.

Results

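Axon guidance genes of the semaphorin, plexin, neuropilin, Eph, ephrin, Slit, Robo, netrin and Unc5 families were followed in embryonic mouse tongues that had lost the TGF-beta type II receptor gene Tgfbr2 in the neural crest. Members were taken by gene name, as every gene of these families that an Affymetrix probe set reads under a single symbol. The choice was made with earlier results of these data known. The brightest probe set stood for each gene. This gave 67 genes of the 18193 on the array. The tested tongues came from 3 mutants of genotype Tgfbr2 fl/fl; Wnt1-Cre, in which the Wnt1-Cre recombinase acts in the neural crest and its descendants. They were set against 3 controls of genotype Tgfbr2 fl/fl, which carry the floxed alleles without Cre, although their titles call them wildtype. All embryos were at embryonic day 14.5 and of strain C57BL/6J, sex was not determined per the labels, and the labels name the material both tongue and tongue mesenchyme. Read from Xist and Y-linked RNA, mutant arrays 1, 2 and 3 were female, male and female. Control arrays 1, 2 and 3 were female, male and male, so the groups were not balanced for sex. Muscle fibres, the endothelium of blood vessels and surface epithelium lie outside the neural crest lineage and keep Tgfbr2 in this model. Nothing in the labels says that the arrays hold separate litters, and a p-value here speaks only of the spread among these 6 samples. Tgfbr2 itself had values of 11.16, 11.79 and 11.69 in the mutants, against 11.55, 11.82 and 11.80 in the controls (log2 difference -0.18, limma adjusted p = 0.642). The sources used here do not say whether its probes lie in the floxed part, so these values do not check the labels.

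Guidance genes encode cues that tell growing axons, and also migrating cells and sprouting vessels, where to go. Secreted class 3 semaphorins bind neuropilins and signal through plexins, while most other semaphorins bind plexins directly. Ephrins sit on the cell surface and signal on contact through Eph receptor tyrosine kinases, Slits act through Robo receptors, and netrins attract through Dcc and Neo1 or repel through Unc5 receptors. The cell bodies of most axons that enter the tongue lie in ganglia and the brainstem outside it. A tongue sample is a mixture, and fewer cells of a type and less RNA per cell cannot be told apart in it.

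Of the 67 genes, 63 had a mean of at least 5.17 on the log2 scale and were tested, among 13645 genes in all. Sema3d, Epha5 and Plxnc1 rose and Ntn1 fell in the mutants. These 4 calls are 6.35% of the 63 genes, against 2.14% of all tested genes (limma, adjusted p under 0.05). The 3 increases are 4.76% of the members, against 1.32% of all tested genes, and the 1 decrease is 1.59%, against 0.821%. The 3 mutant values lay apart from the 3 control values in 19 members (30.2%), against 25.1% of all tested genes. Mutants were above in 13 of the 63 members (20.6%), against 13.6% of all tested genes, and below in 6 (9.52%), against 11.5%. An unadjusted p under 0.05 was reached by 18 members (28.6%), against 16.9% of all tested genes: 12 with higher values (19%), against 9.43%, and 6 with lower values (9.52%), against 7.46%. The members' median log2 difference was 0.06, against 0.016 over all tested genes, and the median size of the difference was 0.211, against 0.133. Without a filter on low values the same 4 genes were called.

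The sequences upstream of the 3 genes that rose are shown because TGF-beta signals through Smad proteins whose short DNA box reads CAGAC. Each window holds the 250 bases before an annotated transcription start in build GRCm38.p6, written 5′ to 3′ along the gene: chr5:12382916-12383165 on the plus strand for Sema3d, chr5:84417383-84417632 on the minus strand for Epha5 and chr10:94944846-94945095 on the minus strand for Plxnc1. Capitals mark matches to CAGAC on either strand (GTCTG on the strand shown) and to the AP-1 motif TGANTCA, which reads the same on both strands.
Sema3d: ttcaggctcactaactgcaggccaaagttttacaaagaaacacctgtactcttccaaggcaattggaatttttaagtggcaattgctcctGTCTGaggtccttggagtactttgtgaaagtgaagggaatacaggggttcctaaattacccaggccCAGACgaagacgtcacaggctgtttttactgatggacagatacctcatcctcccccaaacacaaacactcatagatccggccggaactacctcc
Epha5: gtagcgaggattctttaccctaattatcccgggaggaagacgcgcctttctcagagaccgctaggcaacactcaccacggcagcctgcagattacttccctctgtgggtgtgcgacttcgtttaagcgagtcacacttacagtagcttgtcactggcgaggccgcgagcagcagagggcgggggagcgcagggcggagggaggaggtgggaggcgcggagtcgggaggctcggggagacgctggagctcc
Plxnc1: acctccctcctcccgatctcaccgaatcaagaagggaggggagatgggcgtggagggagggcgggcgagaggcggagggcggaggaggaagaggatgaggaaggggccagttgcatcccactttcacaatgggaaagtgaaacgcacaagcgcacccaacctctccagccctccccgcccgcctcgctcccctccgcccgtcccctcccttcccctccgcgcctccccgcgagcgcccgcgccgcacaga
The Sema3d window held 2 matches to CAGAC, and the Epha5 and Plxnc1 windows held 0. None of the 3 windows held TGANTCA. Among all 32851 windows of this length in the RefSeq table, 42.2% held CAGAC and 6.75% held TGANTCA. The Epha5 and Plxnc1 windows were rich in G and C, at 62.4% and 68.8%, and the Sema3d window had 46.8%, against a median of 52.4%. No Ntn1 window was used here.

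Sema3d had the largest difference of the 63 genes. It encodes a secreted class 3 semaphorin that acts through neuropilins on axons and vessels. Its values were 10.53, 10.11 and 10.09 in the mutants, against 8.98, 8.84 and 8.59 in the controls. All mutants lay more than 1 log2 unit above all controls. The log2 difference was 1.44 (standard error 0.16, limma adjusted p = 0.00911), a fold of 2.71. A dimmer Sema3d probe set gave 0.91. The call held in 4 of the 6 fits that left out 1 array and was lost without control array 2 (adjusted p = 0.0630) or control array 3 (0.0545), while the difference stayed between 1.29 and 1.53 in all 6.

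The other class 3 semaphorins did not share this size of change. Sema3a, the best known axon repellent of the class, had values of 9.88, 10.18 and 10.07 in the mutants, against 9.75, 9.68 and 9.69 in the controls. The groups did not overlap, and the controls lay close together. Its log2 difference was 0.34 (standard error 0.10, limma adjusted p = 0.162), and without mutant array 1 it was 0.42 and passed (adjusted p = 0.0330). Other Sema3a probe sets gave 0.039 and -0.27, so its probe sets differed in direction. Sema3d and Sema3a are next to each other among the protein-coding genes of chromosome 5, followed by Sema3e and Sema3c further along. Sema3e, a ligand of Plxnd1 in vessels, differed by -0.30 and Sema3c by -0.12, so the 4 genes of this stretch had differences of either sign. Sema3f, a ligand of Nrp2, had all 3 mutant values above the controls (0.28, adjusted p = 0.269). Sema3b and Sema3g differed by -0.33 and 0.19, and their groups overlapped.

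The membrane-bound semaphorins gave no call. All 6 class 4 genes (Sema4a, Sema4b, Sema4c, Sema4d, Sema4f and Sema4g) had positive log2 differences, between 0.015 and 0.42, against 53.4% positive among all tested genes. Only Sema4b had mutants clear of controls, at 8.15, 8.09 and 8.10, against 7.90, 7.98 and 7.81. Sema5b had 6.38, 6.66 and 7.35 in the mutants, against 6.32, 6.19 and 6.08 in the controls, with a log2 difference of 0.60 (adjusted p = 0.258) that was widest on mutant array 3. Its class partner Sema5a differed by -0.40 with overlapping groups. The 4 class 6 genes lay between -0.21 and 0.052.

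**Figure D1:**
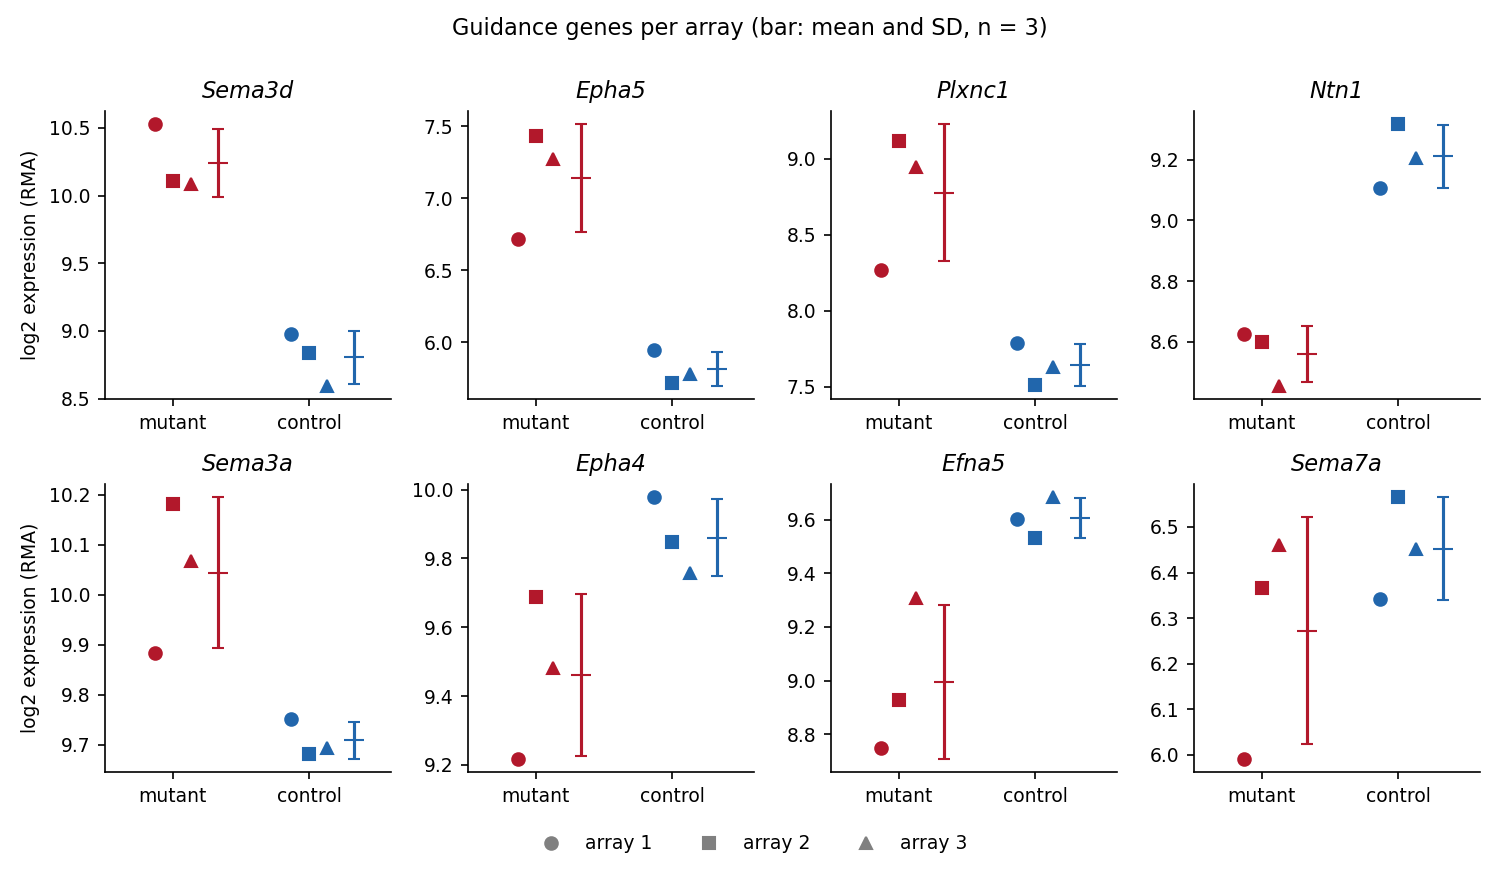
Log2 expression (RMA, vertical axes, a separate scale for each gene) of 8 guidance genes in 3 mutant (red, left) and 3 control (blue, right) tongues; point shapes give the array number and bars the mean and SD. Mutants and controls lie apart for every gene shown except Sema7a, and the gap is widest for Sema3d, Epha5 and Plxnc1.

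Among the receptors for semaphorins, only Plxnc1 passed. It encodes plexin C1, the receptor of the membrane-anchored semaphorin Sema7a. Its values were 8.27, 9.12 and 8.95 in the mutants, against 7.79, 7.51 and 7.63 in the controls. Mutant array 1 was the nearest to the controls and still above them. The log2 difference was 1.13 (standard error 0.22, limma adjusted p = 0.0476), a fold of 2.19, and without mutant array 1 it was 1.39 (adjusted p = 0.00167). A further probe set above the filter value gave 1.01, whereas 4 dim ones gave 0.091 to 0.21, and the mean over the 6 probe sets was 0.45 (adjusted p = 0.105). The call lay close to the threshold and was lost in the other 5 fits that left out 1 array (adjusted p between 0.0922 and 0.216).

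Sema7a itself was not called, with 5.99, 6.37 and 6.46 in the mutants, against 6.34, 6.57 and 6.45 in the controls (log2 difference -0.18, adjusted p = 0.552). Its other receptor partner, the integrin subunit gene Itga1, had 6.02, 6.61 and 6.81 in the mutants, against 7.20, 7.42 and 7.36 in the controls. These groups did not overlap, and the log2 difference was -0.84 (standard error 0.20, limma adjusted p = 0.0906). It was called with the replicate number as a block (adjusted p = 0.0302) and without mutant array 1 (-0.61, adjusted p = 0.0233). Itgb1, which encodes the partner subunit, differed by 0.037.

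The neuropilins and the other 8 plexins gave no call. Nrp1, the co-receptor for Sema3a and Sema3d, had 11.47, 12.11 and 12.22 in the mutants, against 11.83, 12.01 and 11.93 in the controls. Its log2 difference was 0.0094 with a standard error of 0.19, and the groups overlapped. Nrp2 had 8.70, 10.06 and 9.87 in the mutants, against 9.66, 9.34 and 9.34 in the controls. Mutant array 1 was far below and the other mutants above every control: the difference was 0.095 with all arrays and 0.52 without that array (adjusted p = 0.0678). The plexin with the smallest p after Plxnc1 was Plxna4, a plexin of sensory axons, at 5.83, 5.99 and 5.93 in the mutants, against 5.96, 6.36 and 6.03 in the controls (log2 difference -0.20, adjusted p = 0.453).

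**Figure D2:**
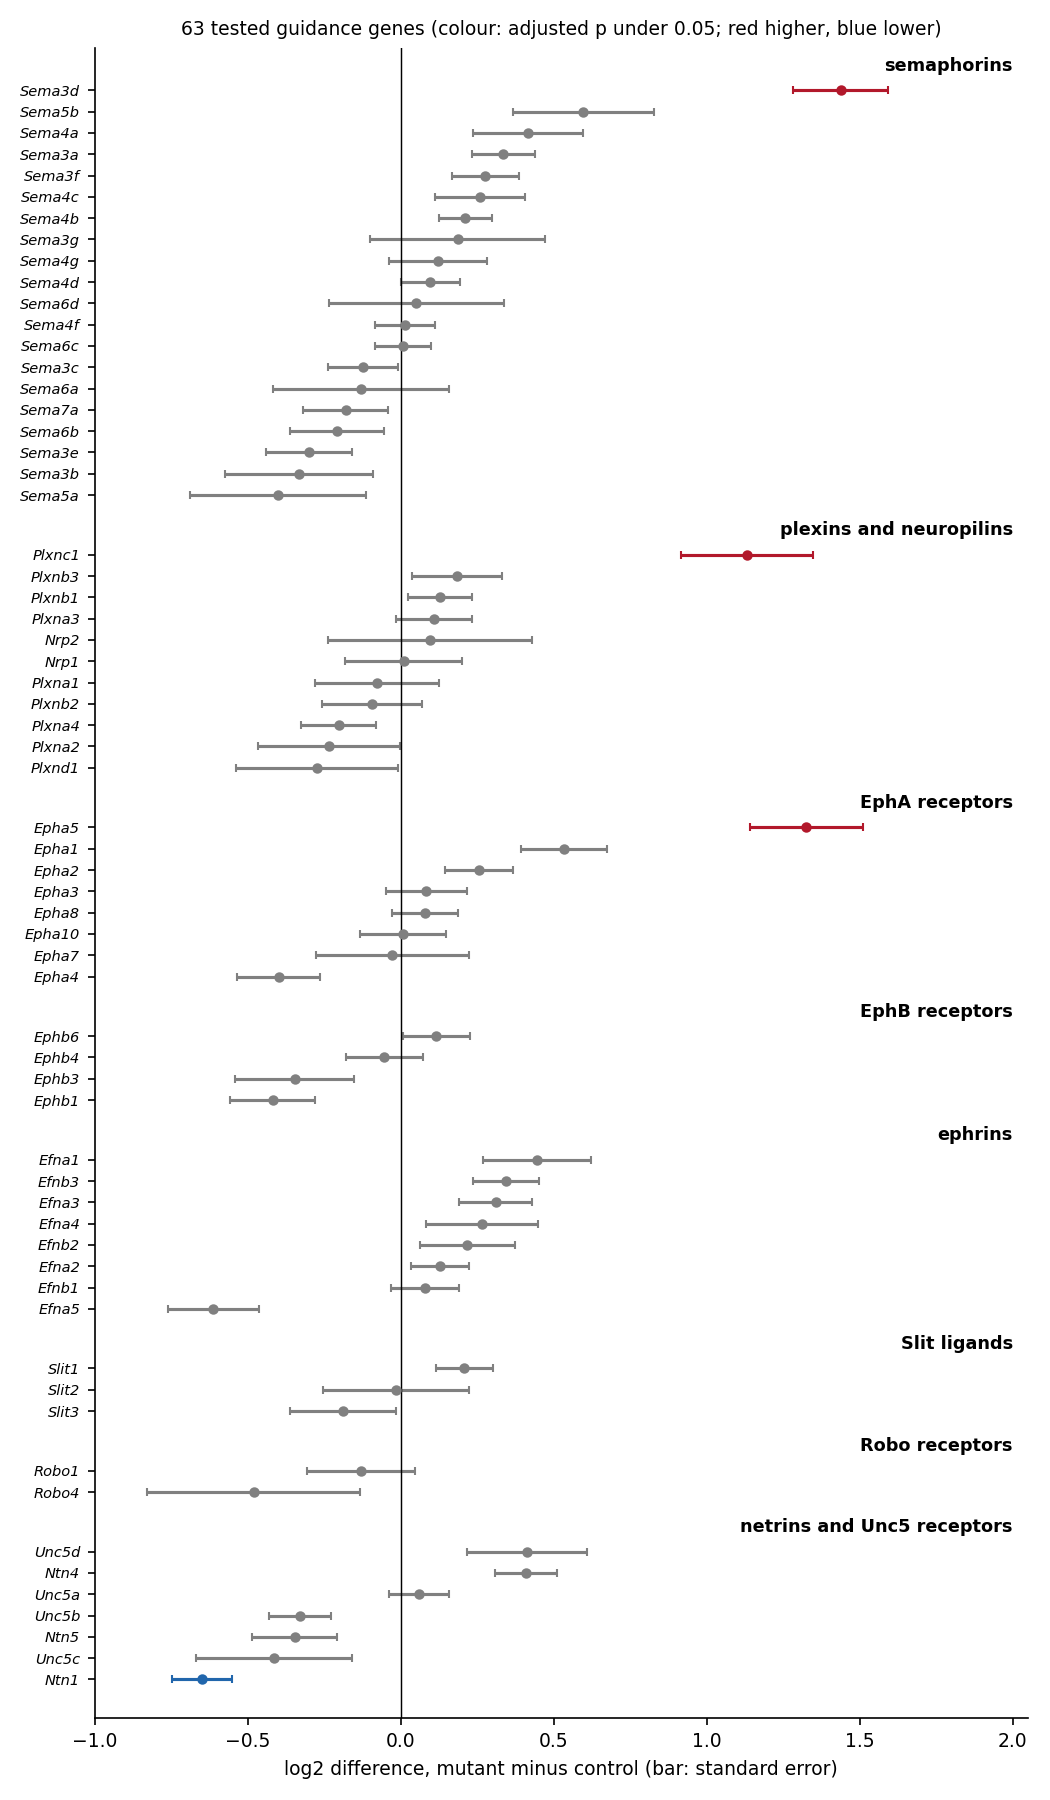
Log2 difference, mutant minus control (horizontal axis), of the 63 tested guidance genes grouped by family; bars are the standard error and colour marks an adjusted p under 0.05. Sema3d, Epha5 and Plxnc1 stand to the right at 1.44, 1.33 and 1.13, and Ntn1 stands at the left end at -0.65.

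Epha5 was the only Eph receptor gene that was called. It encodes a receptor for A-type ephrins that is best known from the nervous system. Its values were 6.71, 7.43 and 7.27 in the mutants, against 5.95, 5.72 and 5.78 in the controls. Every mutant lay above every control, with mutant array 1 the closest. The log2 difference was 1.33 (standard error 0.18, limma adjusted p = 0.0188), a fold of 2.51. The 2 further Epha5 probe sets above the filter value gave 1.54 and 1.38, and a dim one gave 0.13. Without mutant array 1 the adjusted p was 0.00091. Each of the other 5 fits that left out 1 array lost the call (adjusted p between 0.0514 and 0.112), with differences between 1.18 and 1.39.

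Epha4, a receptor that binds ephrins of either type, is described here after its values were seen. Its brightest probe set had 9.22, 9.69 and 9.48 in the mutants, against 9.98, 9.85 and 9.76 in the controls. The groups were close but did not overlap, and the log2 difference was -0.40 (standard error 0.14, limma adjusted p = 0.202). Its 4 other probe sets gave larger negative differences of -0.46, -0.78, -0.93 and -1.36, the last from a dim one, and as the mean of its probe sets Epha4 passed (-0.79, adjusted p = 0.0217).

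The remaining EphA genes were not called. Epha1, a receptor of epithelial cells, had 7.44, 7.50 and 7.03 in the mutants, against 6.86, 6.67 and 6.83 in the controls. Mutants were above controls throughout, with a log2 difference of 0.53 (standard error 0.14, limma adjusted p = 0.119) that passed without mutant array 3 (0.68, adjusted p = 0.0404). Epha2, another receptor found in epithelium, differed by 0.26 and also had no overlap. Epha3, Epha7, Epha8 and Epha10 lay between -0.028 and 0.083. Epha7 had the wider spread among the mutants, with 10.17 on array 1 and 10.98 and 11.22 on the others, against 10.72, 10.95 and 10.79 in the controls.

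The EphB receptors, which bind B-type ephrins, were not called, and 3 of the 4 had negative differences. Ephb1 had 6.76, 7.22 and 7.15 in the mutants, against 7.33, 7.54 and 7.51 in the controls, with a log2 difference of -0.42 (standard error 0.14, limma adjusted p = 0.192). Ephb3 had 8.999, 9.68 and 9.76 in the mutants, against 9.83, 9.80 and 9.84 in the controls (-0.35, adjusted p = 0.417). Mutants lay below controls for both genes, but for Ephb3 most of the gap came from mutant array 1, and without it the difference was -0.11. Ephb4, a receptor of veins, and Ephb6 differed by -0.053 and 0.12 with overlapping groups.

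Of the 8 ephrin genes, 7 had positive differences and Efna5 stood on the other side. Efna5 encodes a membrane-anchored A-type ephrin and a ligand of Epha5 and Epha4. It had 8.75, 8.93 and 9.31 in the mutants, against 9.60, 9.53 and 9.69 in the controls. No mutant reached the lowest control, and the log2 difference was -0.61 (standard error 0.15, limma adjusted p = 0.0984). It passed without mutant array 3 (-0.77, adjusted p = 0.0336), and without mutant array 1 it was -0.49. Efnb3, a B-type ephrin of the nervous system midline, had 8.80, 9.09 and 8.79 in the mutants, against 8.62, 8.51 and 8.53 in the controls. It had no overlap either, at 0.34 (standard error 0.11, limma adjusted p = 0.174). Efna3 had mutants just above controls (0.31), and Efna1, Efna2, Efna4, Efnb1 and Efnb2, the last an ephrin of arteries, overlapped at 0.081 to 0.45.

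Several of these positive values ran in parallel with markers of epithelium. All 7 epithelial markers had positive differences (median 0.60), with 0 called by limma. An unadjusted p under 0.05 was reached by 5 of these markers (71.4%), against 16.9% of all tested genes. Clear of the controls were 6 of the markers (85.7%), against 25.1% of all tested genes in either direction. Their median per array, relative to the control mean, was 0.90, 0.63 and 0.27 in mutant arrays 1, 2 and 3, against -0.034 to 0.096 in the controls. The log2 of their summed signal was 14.2 to 14.8 in the mutants, against 13.8 to 13.9 in the controls. Efna1 had 8.90, 8.67 and 8.23 in the same mutant arrays, against 8.30, 8.03 and 8.13 in the controls. Sema4a had 7.66, 7.33 and 6.90 in the mutants, against 6.91, 6.85 and 6.88 in the controls. Efna1 and Sema4a shared the order of the mutant arrays with the median of the epithelial markers. Among others, Sema3d (10.53, 10.11 and 10.09), Efna3, Efna4, Sema3f and Slit1 shared it too. Some positive members did not. Epha1 had 7.44, 7.50 and 7.03 and Epha2 had 7.49, 7.14 and 7.32 in mutant arrays 1, 2 and 3. Efnb1 and Sema4g were lowest on mutant array 1. The part of epithelium in the values of any of these genes was not tested.

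**Figure D3:**
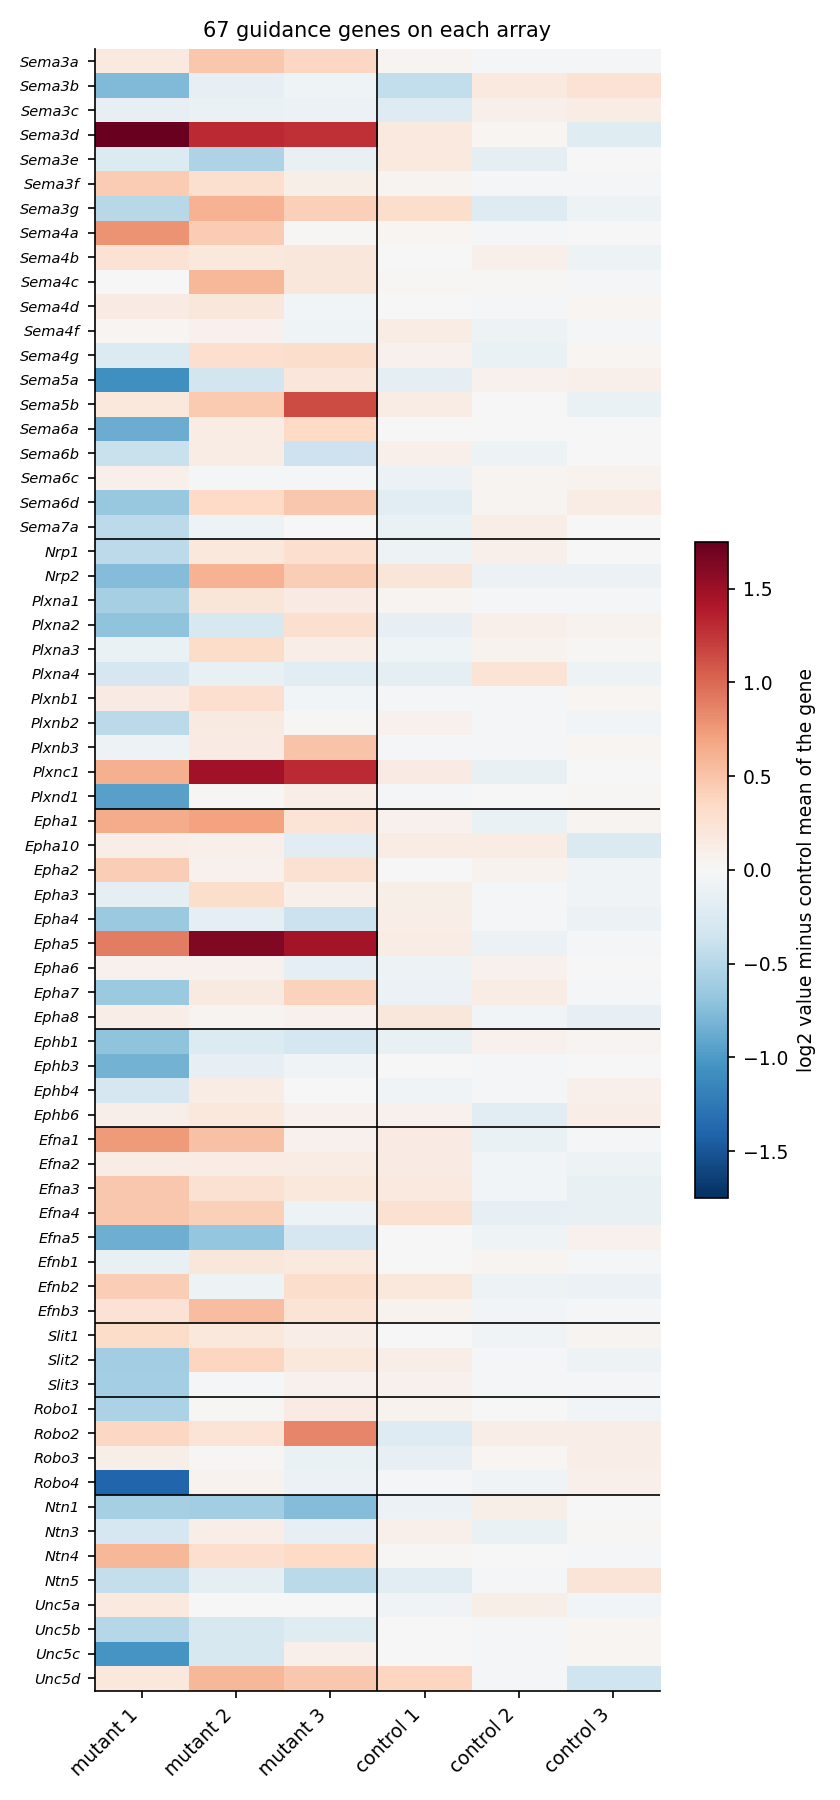
Log2 value minus the control mean of each gene (colour scale) for all 67 guidance genes (rows, by family, with lines between families in the order semaphorins, plexins and neuropilins, EphA, EphB, ephrins, Slits, Robos, netrins and Unc5) on the 3 mutant (left) and 3 control (right) arrays. Sema3d, Plxnc1 and Epha5 are raised on all mutant arrays and Ntn1 is lowered on all of them, whereas mutant array 1 alone is low for genes such as Robo4 and Plxnd1.

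Ntn1 was the only member called lower in the mutants in the main fit. It encodes netrin-1, a secreted cue for axons and also for epithelial and vascular growth. Its values were 8.63, 8.60 and 8.45 in the mutants, against 9.11, 9.32 and 9.21 in the controls. The mutants lay close together and well below the controls, and mutant array 1 did not stand apart. The log2 difference was -0.65 (standard error 0.10, limma adjusted p = 0.0249), and it ranged from -0.70 to -0.60 when single arrays were left out. A dim Ntn1 probe set gave -0.27. The call held without mutant array 1 (adjusted p = 0.0123), and the other 5 such fits lost it (between 0.0515 and 0.143).

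The other netrins measured were not called. Ntn4, a netrin of basement membranes, had 6.83, 6.55 and 6.61 in the mutants, against 6.28, 6.25 and 6.24 in the controls. The groups did not overlap, and the log2 difference was 0.41 (standard error 0.10, limma adjusted p = 0.102). Ntn5 differed by -0.35 (adjusted p = 0.272), with 1 mutant inside the control range.

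Receptors for netrins were not called. Unc5b, a repulsive netrin receptor of vessels and axons, had 6.90, 7.12 and 7.19 in the mutants, against 7.39, 7.38 and 7.43 in the controls. Its controls were tightly grouped and all mutants lay below them, with a log2 difference of -0.33 (adjusted p = 0.165) and of -0.39 on a second probe set. Unc5c had 7.60, 8.35 and 8.72 in the mutants, against 8.63, 8.60 and 8.67 in the controls, so its mean difference of -0.41 came mostly from mutant array 1 and was -0.10 without it. Unc5a differed by 0.060. Unc5d differed by 0.41, and its control mean of 5.12 was under the filter value, so it was tested only because of its mutant values.

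Of the attractive receptors neither was called. The brightest Dcc probe set had 6.05, 6.81 and 7.65 in the mutants, against 6.24, 6.29 and 6.16 in the controls (log2 difference 0.61, adjusted p = 0.429). On it mutant array 1 lay below the controls and the other mutants above them. Another Dcc probe set had 6.40, 7.09 and 7.67 in the mutants, against 5.83, 5.95 and 5.65 in the controls. There all mutants lay above all controls, with a log2 difference of 1.24 (limma adjusted p = 0.109 over all probe sets), and the dimmest gave 0.061. Neo1, which binds both netrins and repulsive guidance molecules, had 9.72, 10.62 and 10.50 in the mutants, against 10.63, 10.61 and 10.55 in the controls, so mutant array 1 was far below the rest.

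**Figure D4:**
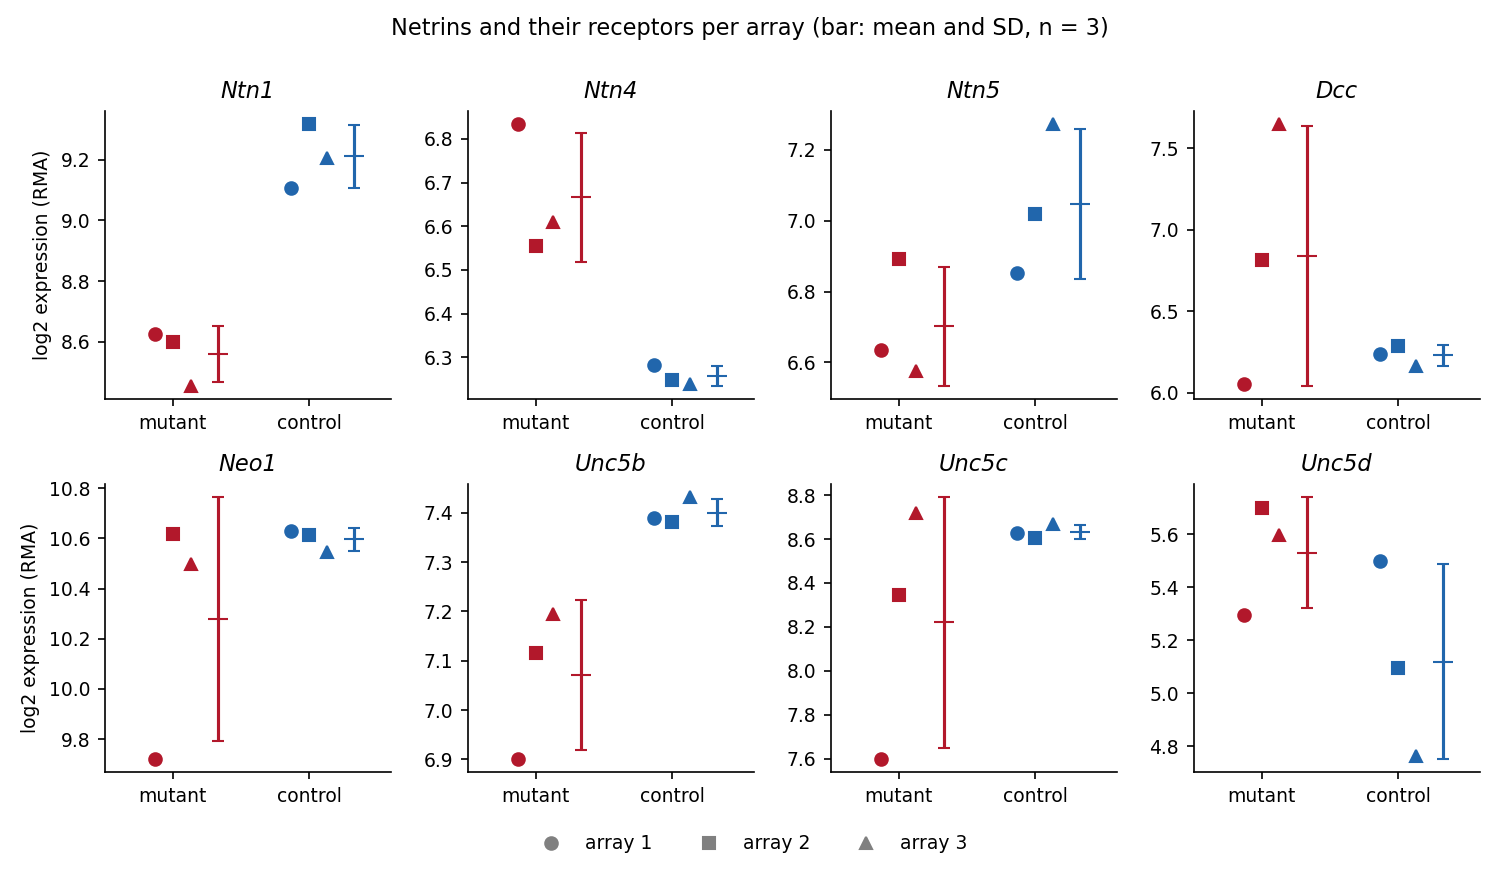
Log2 expression (RMA, vertical axes, a separate scale for each gene) of 3 netrin genes and 5 of their receptors in 3 mutant (red, left) and 3 control (blue, right) tongues; point shapes give the array number and bars the mean and SD. Ntn1 and Unc5b are lower and Ntn4 is higher on all mutant arrays, and the gaps of Neo1 and Unc5c come mostly from mutant array 1.

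Slit and Robo genes gave no call. Slit1 had 6.94, 6.79 and 6.73 in the mutants, against 6.62, 6.55 and 6.66 in the controls, without overlap (log2 difference 0.21, standard error 0.09, limma adjusted p = 0.318). Slit2, which encodes an axon repellent, had 9.74, 10.72 and 10.54 in the mutants, against 10.47, 10.32 and 10.26 in the controls. Its difference was -0.014 with all arrays and 0.28 without mutant array 1, and the groups overlapped. Slit3, another Slit, had 5.56, 6.12 and 6.23 in the mutants, against 6.23, 6.13 and 6.12 in the controls (-0.19, adjusted p = 0.622, and 0.018 without that array).

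Robo1, which encodes a Slit receptor, had 10.22, 10.78 and 10.91 in the mutants, against 10.83, 10.76 and 10.72 in the controls (-0.13, adjusted p = 0.741, and 0.078 without mutant array 1). Robo4, a Robo of endothelial cells, had 5.44, 6.89 and 6.72 in the mutants, against 6.81, 6.77 and 6.92 in the controls. Its log2 difference of -0.48 (standard error 0.35, limma adjusted p = 0.524) came from array 1 alone and was -0.024 without it. Robo2, Robo3, Epha6 and Ntn3 lay under the filter value and were not tested. Their means were between 3.38 and 5.03 in the mutants and between 3.38 and 4.62 in the controls.

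Mutant array 1 was low for many of the guidance genes. It was the lowest of the 6 arrays for 31 of the 63 (49.2%), against 32.6% of all tested genes, and the highest for 13 (20.6%), against 31.2%. It correlated with the other arrays at 0.966 to 0.978 over the tested genes, below the 0.984 to 0.998 among the remaining 5. The lowest values relative to mutant arrays 2 and 3 belonged to Robo4 (-1.37), Nrp2 (-1.27), Sema6a (-1.11), Sema6d (-1.08) and Plxnd1 (-1.02). Plxnd1, the plexin of endothelial cells, had 7.41, 8.39 and 8.48 in the mutants, against 8.34, 8.38 and 8.39 in the controls. Endothelial markers moved with it: 7 of 8 had negative differences (0 called by limma, 1 at an unadjusted p under 0.05). Their median per array was -0.80, -0.047 and -0.041 in mutant arrays 1, 2 and 3, against -0.043 to 0.053 in the controls. The log2 of their summed signal was 10.2 to 10.9 in the mutants, against 10.8 to 11.0 in the controls. The markers differed among themselves. All mutants lay below all controls for 3 of the 8 (37.5%), against 25.1% of all tested genes without overlap in either direction. These were Cldn5 (log2 difference -0.68, limma adjusted p = 0.0555), Pecam1 (-0.49) and Esam (-0.38), so their fall was not confined to mutant array 1. Emcn was the positive marker (0.31), and Tie1 differed by -0.064. Robo4 and Plxnd1 were within the control range or within 0.1 of it on the other mutant arrays, and the part of endothelium in their values was not tested. Other marker lists were also low on mutant array 1. The skeletal muscle median was -1.01, -0.36 and -0.32 in mutant arrays 1, 2 and 3, against -0.35 to 0.18 in the controls, and the log2 of the summed signal was 14.3 to 15.1 in the mutants, against 15.2 to 15.6 in the controls. The median of 4 lymphatic markers was -1.02, -0.073 and -0.085 in the same mutant arrays, against -0.069 to 0.029 in the controls. Of these Lyve1 fell (log2 difference -2.21, limma adjusted p = 0.0150), and its fall was not confined to mutant array 1. It had 5.15, 3.90 and 4.67 in the mutants, against 6.79, 6.64 and 6.92 in the controls. Prox1, Pdpn and Flt4 differed by -0.089, -0.13 and -0.31 and were not called. The mesenchyme median was -0.34, 0.066 and 0.20 in the mutants, against -0.056 to 0.040 in the controls.

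**Figure D5:**
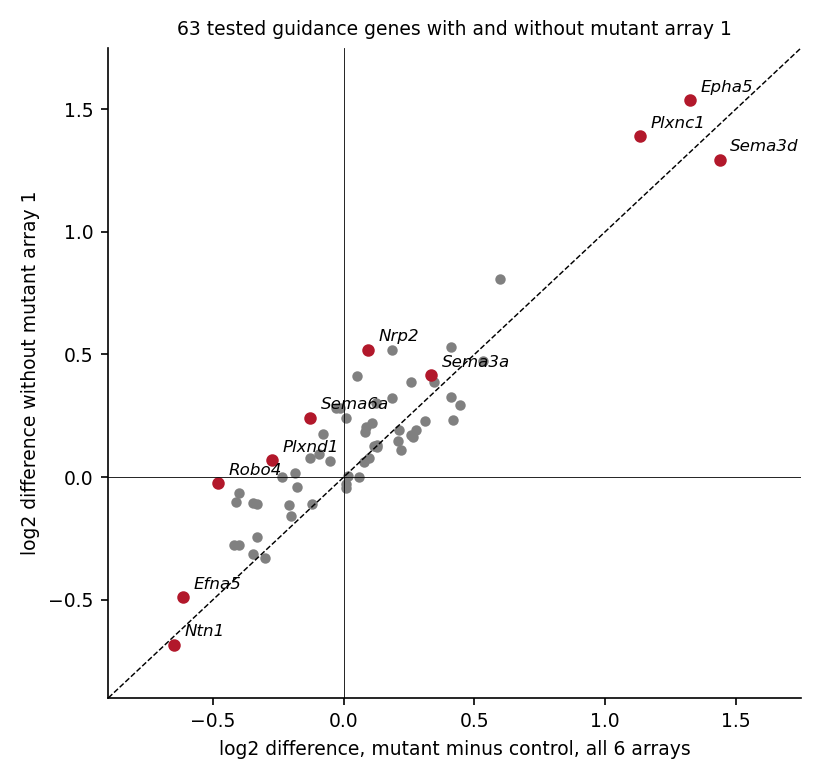
Log2 difference, mutant minus control, of the 63 tested guidance genes with all 6 arrays (horizontal axis) and without mutant array 1 (vertical axis); the dashed line marks equal values and named genes are red. Sema3d, Epha5, Plxnc1 and Ntn1 keep their distance from 0, whereas Robo4 and Plxnd1 lie near 0 on the vertical axis.

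Leaving out mutant array 1 changed the sign of 12 of the 63 differences, and none of these was called in either fit. The calls without it were the same 4 and Sema3a, 7.94% of the members, against 4.91% of all tested genes. With the replicate number as a block they were the same 4, against 3.59% of all tested genes. With sex as a covariate, read from Xist and Y-linked RNA, Sema3d and Epha5 stayed called, and Ntn1 (adjusted p = 0.0676) and Plxnc1 (0.0923) did not. Without control array 2 or control array 3 limma called 0 members, with 10 at an unadjusted p under 0.05 in each fit, and all genes gave 16 and 19 calls.

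Neural markers were set beside these genes because Epha5, Plxnc1 and Dcc are expressed in neurons. Of 9 neuron and axon markers 7 had positive differences (median 0.62), and 1 rose by the test. An unadjusted p under 0.05 was reached by 5 (55.6%), against 16.9% of all tested genes. The groups did not overlap for 5 (55.6%), against 25.1%. The log2 of their summed signal was 11.9 to 12.3 in the mutants, against 11.996 to 12.04 in the controls. The called marker was Stmn2 (1.07, limma adjusted p = 0.0272). Mutants also lay above all controls for Nefm (1.32), Nefl (1.27) and Gap43 (0.62), which were not called. Dcx had the largest difference of the 9 in size, and it was negative, with mutants below controls (-1.34, standard error 0.29, limma adjusted p = 0.0736). Its other probe sets gave -1.42, -0.92 and -1.11, the last from a dim one. Elavl4, also negative, differed by -0.0065. Of the 6 measured Schwann lineage markers 5 were positive (median 0.36, 0 called by limma). An unadjusted p under 0.05 was reached by 4 of the 6 (66.7%), against 16.9% of all tested genes. Their summed signals were 11.5 to 12.04 in the mutants, against 11.6 to 11.7 in the controls. Relative to the control means, the neural median was 0.34, 0.88 and 0.65 in mutant arrays 1, 2 and 3, the order also seen for Plxnc1 and for the brightest Epha5 probe set. The other Epha5 probe sets above the filter value were highest on mutant array 3, at 6.98, 7.06 and 7.19 and at 6.80, 6.85 and 7.17. Dcc and the Schwann median (0.16, 0.40 and 0.51) were also highest on that array. None of the measured neural or Schwann markers was under the filter value. Macrophages also express Plxnc1: 5 of 6 macrophage markers were positive (median 0.39), C1qa rose by the test, and their summed signal was 10.9 to 11.0 in the mutants, against 10.5 to 10.8 in the controls. The part of any of these cell types in the values of Epha5 and Plxnc1 was not tested. The labelled tissue was checked on its markers: all 9 skeletal muscle, 7 epithelial and 7 mesenchyme markers lay above the filter value. All 9 muscle markers had negative differences (median -0.69, 0 called by limma). An unadjusted p under 0.05 was reached by 5 of the 9 (55.6%), against 16.9% of all tested genes. Of the 7 mesenchyme markers 2 rose, 28.6% of the list, against 1.32% of all tested genes. These were Dcn by 0.65 (limma adjusted p = 0.0238) and Lum by 0.77 (adjusted p = 0.0152), both genes of matrix proteoglycans. The mesenchyme median difference was -0.026, and the log2 of the summed signal was 14.94 to 15.30 in the mutants, against 14.89 to 15.05 in the controls. The part of mesenchyme in the guidance values was not tested.

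Few genes around the guidance receptors passed the test. Of 57 tested co-receptors, further cues and cytoplasmic mediators 1 rose and 1 fell, 3.51% against 2.14% of all tested genes, and their median difference was 0.034. Flrt3, which encodes a membrane protein that binds Unc5 receptors, had 10.39, 10.64 and 10.47 in the mutants, against 9.99, 9.75 and 9.76 in the controls (log2 difference 0.67, standard error 0.11, limma adjusted p = 0.0313). Rgmb, which encodes a Neo1 ligand and BMP co-receptor, had 8.95, 8.91 and 9.18 in the mutants, against 9.49, 9.82 and 9.69 in the controls (-0.66, standard error 0.12, limma adjusted p = 0.0441). Each gene's groups stood apart, but the mean over the Rgmb probe sets was -0.27 (adjusted p = 0.259), and each call was lost with the sex covariate and in 5 of the 6 fits that left out 1 array, all except the one without mutant array 1. Alcam, which encodes an adhesion molecule of axons and muscle precursors, differed by 0.81 (adjusted p = 0.0724, 0.0436 with the block).

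The cytoplasmic mediators, 35 genes that include the collapsin response and actin machinery, gave 0 calls in the limma fit and 3 (8.57%) with an unadjusted p under 0.05, against 16.9% of all tested genes. These were Ablim1, an actin-binding protein gene (0.43, adjusted p = 0.105), Limk2, a kinase gene of cofilin control (0.56, adjusted p = 0.187), and Dpysl5, a collapsin response mediator gene (0.25, adjusted p = 0.292). Mutants lay above controls for all 3, and Limk2 was highest on mutant array 1 (9.56, 8.996 and 8.82 in the mutants, against 8.62, 8.56 and 8.52 in the controls).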

How the data were processed

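Total RNA of 6 embryonic tongues was labelled with biotin and hybridised to Affymetrix arrays, as the labels' protocols state. The deposited table holds log2 values that the authors made with RMA, per the submitters' processing notes, with no version given there. RMA corrects background, quantile-normalizes the arrays and summarises the probes of a probe set, so it compresses differences of dim genes and hides a shift shared by most genes. Arrays have no read depth, and their number limits the precision, with log2 differences carrying a standard error of 0.117 in the median. All 67 member symbols matched RefSeq.

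Of 45101 probe sets, 34945 had 1 gene symbol, 932 several and 9160 none listed, and 64 were controls. The brightest probe set stood for a gene, and the lowest 25% of genes were left out. Of 59 further member probe sets above the filter value, 41 had the same sign as the one used, and 3 members are read by probe sets whose suffix marks shared probes. The comparison used limma 3.58.1 under R 4.3.3 (eBayes after lmFit, 2-sided), adjusted by Benjamini-Hochberg over all tested genes at a threshold of 0.05, after tests on simulated data. Figures used matplotlib 3.10.9. Members, lists and tests were chosen with earlier results of these data known. Full statistics are given for called members, for those called with the block or without mutant array 1, and for the 2 smallest p of each of 8 families, and of each partner list for called genes and the 3 smallest p. Other genes were described after their values were seen. Promoters are RefSeq windows of GRCm38.p6, found for 58 members.

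Arrays of the same number deviated together from their groups' means, with correlations of 0.309, 0.105 and 0.206 across tested genes. All are over the limit of 0.1, so the numbers in the titles served as pairs in the replicate block. The main fit used no pairs. The pairing is weak: mutant 2 with control 3 (0.196) and mutant 3 with control 2 (0.147) were also over the limit, and above the value of pair 2. These correlations therefore do not tell pairs 2 and 3 apart. The block is an alternative, beside other filters, probe set summaries, scalings, variance models, array weights, sex and single arrays left out.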

Additional observations from a re-analysis of the deposited data

How the results depend on the processing

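The differences of the 4 called members kept their sign under every alternative in which they were tested. The 4 member calls (limma) became 2 with the lowest 50% of genes left out, where Epha5 was not tested and Plxnc1 had an adjusted p of 0.0569, 2 with the sex covariate, 10 with array quality weights (8 higher) and 0 to 5 when single arrays were left out. Calls over all tested genes moved as well. With the lowest 50% left out the share was 5.71% of members, against 1.66% of all tested genes. It was 3.17% against 0.989% with the sex covariate and 15.9% against 7.58% with array quality weights. Without single arrays it was 0% to 7.94%, against 0.117% to 4.91%. With arrays centred on their median 3 remained, and Plxnc1 had an adjusted p of 0.0543, and 0.0601 when probe sets were tested singly. The count stayed at 4 with no filter, further quantile normalization, trend and robust fitting and the replicate block. With the mean of probe sets it was also 4, with Epha4 in and Plxnc1 out. The 2 partner calls became 1 with the lowest 50% left out, with the mean of probe sets and with further quantile normalization, 7 with array quality weights, 4 with the replicate block, 4 at an adjusted p under 0.1, 0 with the sex covariate (10 at an unadjusted p under 0.05) and 0 to 4 without single arrays. The 7 calls with array quality weights are 12.3% of the partners, against 7.58% of all tested genes. With the replicate block the share was 7.02%, against 3.59%. The 292 calls over all genes became 151 with the lowest 50% left out, 1034 with array quality weights, 490 with the replicate block, 135 with sex, 549 at an adjusted p under 0.1 and 16 to 670 without single arrays. Among uncalled members, 12 changed sign without mutant array 1. Others changed sign without another array, such as Nrp1 (-0.13 to 0.24) and Nrp2 (-0.17 to 0.52). Of the uncalled members given full statistics, Robo1 changed sign with the mean of probe sets (0.018), with array quality weights (0.049) and without mutant array 1 (0.078). Slit3 did so without mutant array 1 (0.018). Without single arrays Robo1 ranged from -0.27 to 0.078 and Slit3 from -0.32 to 0.018. Array weights also brought in Efna5, Efnb3, Epha1, Ntn4, Sema3a and Sema5b. The block changed no other member call. The cause of these changes was not tested, apart from the fewer genes or arrays that some alternatives hold. Dim probe sets limit what can be seen of Robo2, Robo3, Epha6 and Ntn3.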

Other observations

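Probe sets of some uncalled guidance genes gave unlike values, listed here after they were seen. Epha3, a receptor for A-type ephrins, differed by 0.083 on its brightest probe set and by -0.30, -0.53 and -0.30 on the other 3, all lower in the mutants. Slit2 differed by -0.014 on its brightest probe set, by 0.51 on a dimmer one and by -0.22 on the third. Plxnb3, a plexin gene, differed by 0.18 on the brightest and by 0.35 on the other. Unc5c differed by -0.41 and -0.61 on its probe sets. Robo2, under the filter value, had 4.90, 4.78 and 5.39 in the mutants, against 4.31, 4.65 and 4.65 in the controls. These 2 groups did not overlap.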
